A study of Drosophila melanogaster with 2 samples.

Results

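The regions described are the disco peaks on the right arm of chromosome 3 (3R) of Drosophila melanogaster. The regions were chosen with earlier results of these data known. Membership was set by position alone: every line of the study's disco peak list whose chromosome field is 3R was taken. This gave 420 of the 1723 peaks of the list. Of the 1716 peaks on the 5 large arms, which besides 3R are the X, 2L, 2R and 3L, they made up 24.5% (95% Wilson interval 22.5 to 26.6%).

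Disco (disconnected) is a zinc finger protein of the fly embryo. Its mutants were first known for a larval optic nerve that fails to connect, and with its close relative disco-r it also acts in the patterning of the gnathal head segments and the ventral appendages. A ChIP-seq peak is a stretch of the genome where fragments pulled down with an antibody pile up over the control chromatin. It marks where the protein, or something the antibody also recognises, was crosslinked to DNA in the pooled cells of whole embryos. Both Hox complexes, the homeotic gene clusters with lab, pb, Dfd, Scr and Antp in one and Ubx, abd-A and Abd-B in the other, lie on 3R, but no annotation of Release 5 was used here and no peak was assigned to them.

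The series holds 2 samples from embryos of 0 to 8 h without treatment: a disco ChIP, made with the antibody KW3-disco-D2, and the chromatin input that serves as its control. The labels' shared growth text mentions iso1 (y; bw cn sp) flies as well as transgenic flies and does not say which gave these embryos. The ChIP title covers replicates 1 and 2, for which 1 peak list was analysed, and the input entered no value given here. No spread between replicates can therefore be given, no difference was tested, and the read depth is unknown. Intervals take each peak as independent of the others, and the error they cover is that of counting. For a share they are Wilson intervals, and for a median they are binomial intervals from the order of the values. Overlap of intervals is not a test and does not show that the values are alike.

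Positions are on Release 5 (BDGP5), counted from 1. The score of a peak is the value written by the authors' peak caller. Its scale is not named, so it was used to rank peaks within this list and not as an amount of binding. Without an annotation of this release, no peak could be placed in a gene or between genes.

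Most peaks on 3R had scores of up to 80. Scores of 3R peaks ran from 50.1 to 321.52 with a median of 68.69 (95% interval 66.93 to 72.12) and quartiles of 58.0 and 96.9. A score between 50 and 60 was given to 125 peaks (29.8%), one between 60 and 80 to 138 (32.9%) and one between 80 and 100 to 63 (15.0%). The remaining 94 peaks scored above 100, which is 22.4% of the arm (18.7 to 26.6%). Of these, 71 lay between 100 and 150, 16 between 150 and 200 and 7 above 200. The upper tail was thin, and 3 peaks stood close together at its top, with scores of 321.52, 313.88 and 310.59.

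The 420 peaks were short against the arm that they span. Their median width was 1543 bp (1460 to 1630 bp), with quartiles at 1144 and 2224 bp; the narrowest was 601 bp and the widest 8688 bp. Together they covered 765 kb, or 2.76% of the 27.7 Mb between the first and the last peak midpoint. The first peak reached the very start of the arm: its deposited start is -41, before the first base, and it ends at 2036. It scored 139.7 and was 32nd by score on 3R. The last peak, from 27694773 to 27696298, scored 102.69.

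The 20 highest-scoring peaks of 3R scored between 156.52 and 321.52. Cut into 5 equal parts, the arm held 3, 2, 6, 5 and 4 of them, among 85, 65, 94, 91 and 85 peaks. Whether they were spread evenly was not tested. The highest, from 24924009 to 24932696, was also the widest of the arm at 8688 bp. The midpoint of the nearest other peak, which scored 69, was at a distance of 9.07 kb. The second, from 13515157 to 13519284, was 4128 bp wide and had a neighbour with a score of 61.93 at 7.48 kb. The third, from 22951193 to 22953554, was narrower at 2362 bp and stood alone, with its nearest neighbour at 43.6 kb and a score of 53.8. In each of these 3 cases the nearest peak scored below 100, as did 326 of all 420 peaks on the arm.

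The next 4 peaks in rank also differed in their surroundings. The peak from 9571382 to 9573674 (score 248.66) had a second high peak beside it, from 9577834 to 9581488 with a score of 126.74. The peak from 12082395 to 12085461 (score 242.82) had its nearest neighbour at 59.6 kb. The peak from 15859868 to 15862066 (score 231.57) had a neighbour with a score of 54.69 at 4.57 kb. The peak from 25627455 to 25633972 (score 207.52) was the second widest of the arm at 6518 bp, and the next peak, at 12.8 kb, scored 155.59.

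The remaining 13 of the 20 scored between 156.52 and 182.56 and are given in order along the arm. Near the low end of the coordinates, towards the centromere, lay the peaks from 282769 to 285141 (167.43), from 1036896 to 1039671 (159.87) and from 1462904 to 1464395 (156.52). None of the 20 lay in the following 7357 kb, a stretch that held 92 peaks, 18 of them above 100. In the middle of the arm lay the peaks from 8821229 to 8823396 (159.12), from 12377291 to 12378689 (157.78), from 12844946 to 12847027 (182.56) and from 16368273 to 16370077 (161.72). The closest set of 5 lay within 1132 kb, from 19777961 to 20910449, and had scores of 164.69, 164.58, 165.26, 156.9 and 158.52. That stretch held 30 peaks, of which 8, these 5 among them, scored above 100. Over the whole arm 94 of 420 peaks did. This stretch and the one of 7357 kb were set by where the 20 lay. The last of the 13, from 26649854 to 26652054, scored 167.45.

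**Figure D1:**
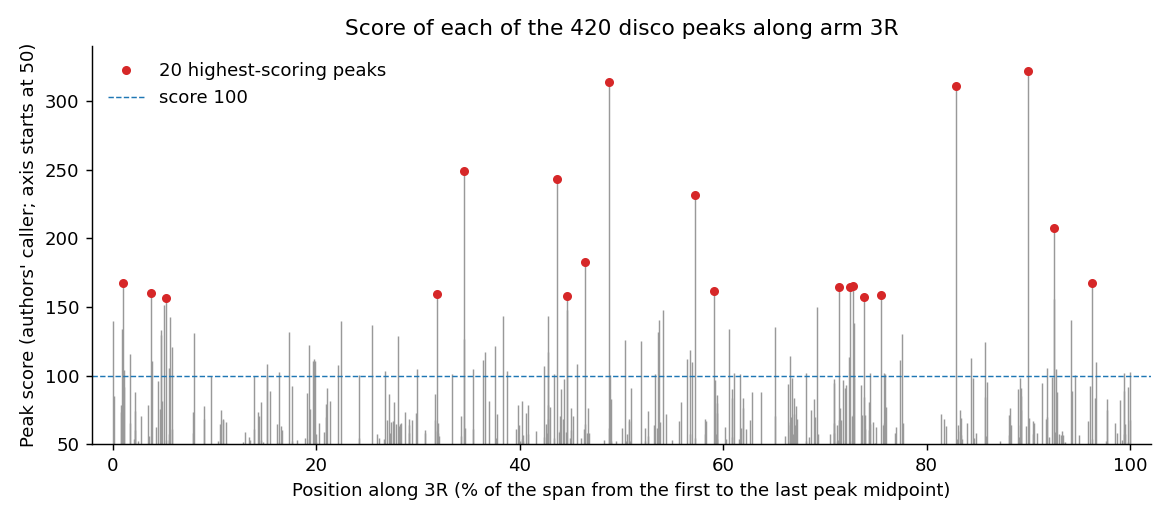
Score of each of the 420 disco peaks (vertical lines, axis from 50) against position along 3R, as a percentage of the span from the first to the last peak midpoint; red points are the 20 highest-scoring peaks and the dashed line is a score of 100. The 3 peaks above 300 lie at 48.8%, 82.9% and 90.0% of the span, and no red point lies between 5.28% and 31.9%.

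The 20 highest-scoring peaks were not direct neighbours: at least 2 other peaks lay between any of them and the next. Of the 20, 11 had another peak midpoint within 10 kb, and the nearest peak scored above 100 for 4, against 178 and 93 of all 420 peaks on the arm. The median score of the nearest peak was 66.23, against 68.83 for the nearest peak over all 420. Among the 94 peaks above 100, 38 had a neighbour within 10 kb, and the nearest peak was itself above 100 for 21. Both counts are close to the shares over all 420 peaks.

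Wider peaks on 3R tended to have higher scores, with many exceptions. Across the 420 peaks Spearman's rho between score and width was 0.36, a description of 1 list in which the same peak calls set both values. In the narrowest 84 peaks (up to 1046 bp) the median score was 59.6 and 5.95% scored above 100 (2.57 to 13.2%). In the widest 84 (from 2466 bp) the median score was 91.1 and 41.7% scored above 100 (31.7 to 52.3%). The steps between were not all upward: the share above 100 was 14.3% in the next class of 84 by width, 28.6% in the middle class and 21.4% in the class after it. Of the 20 highest-scoring peaks, 18 were wider than the median of the arm.

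Width alone did not place a peak high in the list. Of the 10 widest peaks of 3R, 3 were among the 20 highest-scoring ones and 7 scored above 100. One of the widest, from 614486 to 620945 (6460 bp), scored 88.12. Another, from 11156375 to 11161808 (5434 bp), scored only 52.19, close to the lowest score of the arm. A further one, from 21303803 to 21308658 (4856 bp), scored 58.15. The other wide peaks, from 474963 to 479967, from 20049237 to 20053959, from 19173729 to 19178417 and from 10396265 to 10400903, scored between 113.42 and 150.05.

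High scores were also found among narrow peaks. Of the 94 peaks above 100, 29 were no wider than the median of the arm. The narrowest peak above 100, singled out after its value was seen, lay from 11859772 to 11860583, was 812 bp wide and scored 143.44. The 5 narrowest peaks of the arm, 601 to 676 bp wide, had scores of 51.4 to 73.58. They lay from 13695974 to 13696574, 3545521 to 3546165, 583253 to 583915, 27530523 to 27531194 and 7969742 to 7970417. Of the 5, 4 had no neighbour within 10 kb, against 242 of all 420 peaks on the arm.

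**Figure D2:**
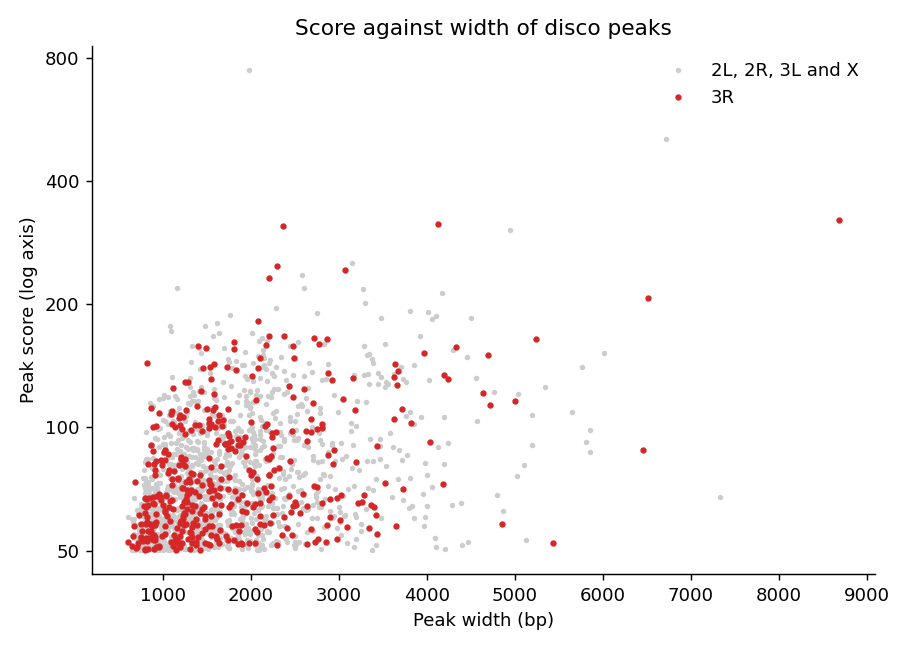
Score (log axis) against width in bp of the disco peaks on 3R (red) and on 2L, 2R, 3L and X (grey), 1 point per peak. The red points spread over the grey ones, with the widest peak of the list at 8688 bp on the right and the low-scoring wide peaks of 3R (52.19 at 5434 bp, 58.15 at 4856 bp) near the bottom.

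Peaks were found along the whole of 3R, at a density that varied several fold between the sparsest and the densest megabases. In the 26 whole windows of 1 Mb the median was 15.5 peaks, the quartiles were 10 and 19, and the counts ran from 4 to 25. The densest windows were those from 12 to 13 Mb and from 20 to 21 Mb, with 25 peaks each, and the one from 25 to 26 Mb with 22. The sparsest were those from 6 to 7 Mb with 4, from 22 to 23 Mb with 5 and from 9 to 10 Mb with 8. The ends of the arm were not empty: 19 peaks had midpoints in the first 1 Mb and 17 beyond 27 Mb.

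A window with many peaks was not always one with many high scores. In the window from 6 to 7 Mb, 3 of the 4 peaks scored above 100 (107.39, 139.76 and 100.09). In the window from 9 to 10 Mb it was 4 of 8, and in the one from 10 to 11 Mb 5 of 9. The window from 3 to 4 Mb held 14 peaks and none above 100, with a highest score of 99.86. The largest counts above 100 were 9 of 20 peaks from 1 to 2 Mb and 8 of 25 from 20 to 21 Mb. Over all 3R peaks the share was 22.4%, and no difference between windows was tested. In the window from 22 to 23 Mb, 4 of the 5 peaks scored between 53.8 and 72.36, and the fifth is the third highest of the arm.

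**Figure D3:**
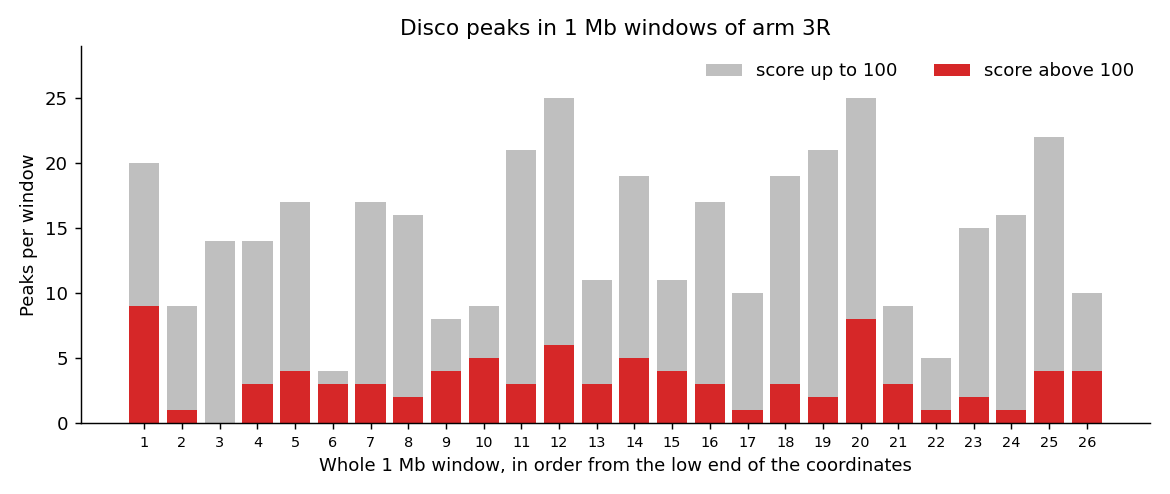
Number of disco peaks in each whole 1 Mb window of 3R, in order from the low end of the coordinates; red is the number scoring above 100 and grey the rest. Windows 12 and 20 are the tallest with 25 peaks, window 6 is the lowest with 4, and window 3 has no red part.

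Over 5 equal parts of the arm the share of peaks above 100 ran from 16.5% to 26.2%. Each part was 5.54 Mb long, and from the centromere outwards they held 85, 65, 94, 91 and 85 peaks. The share scoring above 100 was 25.9% in the first part (17.8 to 36.1%), 26.2% in the second (17.0 to 38.0%), 23.4% in the third (16.0 to 32.9%), 20.9% in the fourth (13.8 to 30.3%) and 16.5% in the fifth (10.1 to 25.8%). These intervals all overlapped. The median score lay between 67 and 73.7 in every part, and the 5 parts held 3, 2, 6, 5 and 4 of the 20 highest-scoring peaks.

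Long stretches of 3R held no peak. The longest, 1042 kb from 21508101 to 22549633, was bounded by peaks scoring 65.16 and 72.36. It was followed by 558 kb from 1624309 to 2182327 (bounding scores 61.37 and 58.43), 471 kb from 6225187 to 6696593 (139.76 and 100.09), 451 kb from 3094311 to 3545520 (50.69 and 51.4) and 408 kb from 12968170 to 13376364 (58.08 and 53.31). Only the third of these was bounded by peaks above 100 on both sides. The list holds no counts, so a stretch without a peak cannot be told from one covered too thinly for a call.

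The median distance from one peak to the next on 3R lay within the range of the other arms. The median stretch between neighbouring peaks was 29.1 kb on 3R (22.4 to 42.0 kb) and lay between 26.1 kb on 2R and 33.6 kb on the X elsewhere. There were 36 stretches over 200 kb on 3R with its 420 peaks, and 33 each on 2L (294 peaks) and the X (244 peaks). On 3L (380 peaks) there were 25 and on 2R (378 peaks) 19. Relative to the number of peaks, such stretches were more frequent on the X and 2L than on 3R. On the other 4 arms the longest single stretch was between 509 kb (3L) and 754 kb (2L).

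**Figure D4:**
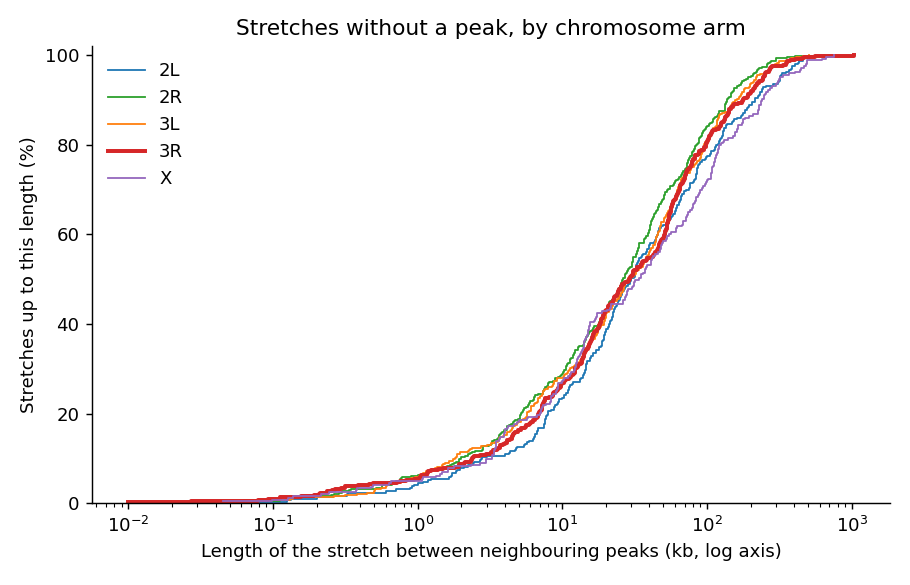
Percentage of the stretches between neighbouring disco peaks that are no longer than the length on the x axis (kb, log axis), by chromosome arm; 3R is the thick red line. The lines run close together around the median of 3R, 29.1 kb, and the red line reaches farthest right, to 1042 kb.

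Close groups of peaks on 3R were mostly pairs. Of the 420 peaks, 178 had a neighbouring midpoint no more than 10 kb away (42.4%, 37.7 to 47.2%). Neighbours count together here, so this interval, which takes peaks as independent, may be too narrow. Chained together, the 178 peaks formed 62 pairs, 14 groups of 3 and 3 groups of 4, which left 242 peaks single. The intervals of peaks in groups and of single peaks overlapped: the median score was 67.9 in groups (64.2 to 71.2) and 70.8 for single peaks (67.2 to 75.3), and 21.3% (16.0 to 27.9%) and 23.1% (18.3 to 28.8%) scored above 100. Their median widths were 1562 bp (1423 to 1847 bp) and 1541.5 bp (1415 to 1630 bp).

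The 3 groups of 4 were different in build. The group from 1306147 to 1318376 has a peak of 3620 bp scoring 132.83, and then 3 narrow peaks with scores of 53.78, 51.31 and 129.2 packed into its last part. The group from 13547625 to 13571733 has scores of 100.43, 52.08, 51.06 and 82.98, with no peak wider than 1475 bp. The group from 20998445 to 21022232 has scores of 102.01, 65.5, 101 and 66.74, with widths of 1854 to 2803 bp.

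The highest score in the group was above 100 in 2 of the 14 groups of 3, where the largest was 131.86, and in all 3 groups of 4. Any peak of a group can bring it above 100, and over all peaks on 3R 22.4% scored above 100. No difference between group sizes was tested. Among the 62 pairs, 28 held a peak above 100, and in 3 of them both peaks were above 100. These 3 pairs, singled out after their values were seen, were the one with the peak scoring 248.66, the one from 11859772 to 11866316 (143.44 and 116.81) and the one from 12370198 to 12378689 (147.93 and 157.78). The closest pair of the arm was separated by 10 bp, from 20363748 to 20365520 and from 20365531 to 20366489, with scores of 92.9 and 51.12. In all, 23 stretches between neighbouring peaks were shorter than 1 kb.

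Set beside the other large arms, 3R held the most peaks, while its density was in the middle of the range. Peaks per Mb of the span between first and last midpoint came to 15.2 on 3R. The densest arm was 2R with 18.4, 3L had 16.3, 2L had 13.1 and the X had 11.6. The share of that span covered by peaks was 2.76% on 3R, and ran from 1.76% on the X to 3.49% on 2R. The median score of 68.69 lay between 67.52 on 3L and 71.19 on 2R, and the median width of 1543 bp between 1320.5 bp on the X and 1666 bp on 2R. The interval of the median width on 3R (1460 to 1630 bp) did not reach that on the X (1266 to 1432 bp) and overlapped those of the other 3 arms.

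The upper part of the score range held a larger count from 3R than from any other arm. A score above 100 was reached by 22.4% of the peaks on 3R, 20.4% on 2R (16.6 to 24.7%), 18.0% on the X (13.7 to 23.3%), 17.4% on 3L (13.9 to 21.5%) and 14.6% on 2L (11.0 to 19.1%). A score above 150 was reached by 5.48% on 3R (3.68 to 8.08%) and by 2.72 to 4.47% on the others. These intervals overlapped between 3R and each of the other 4 arms. For a score above 100 the overlap with 2L was narrow (18.7 to 26.6% on 3R). No difference was tested, and overlap does not show that the shares were alike. Of the 100 highest-scoring peaks of the 5 arms 30 lay on 3R (21.9 to 39.6%), and of the 400 highest 111 (27.75%, 23.6 to 32.3%). Both intervals include the 24.5% of all peaks that lay on 3R. The highest score of the arm, 321.52, was below the highest on the X, a peak from 16110278 to 16112258 with 748.23, and below that on 2L, from 6976797 to 6983514 with 508.17. It was above the highest on 3L (235.61, from 5848751 to 5851330) and that on 2R (219.36, from 9068199 to 9070798).

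The share of peaks with a neighbour within 10 kb, 42.4% on 3R, lay between 33.3% on 2L (28.2 to 38.9%) and 46.8% on 2R (41.9 to 51.9%). It was 43.2% on 3L (38.3 to 48.2%) and 39.8% on the X (33.8 to 46.0%). All 4 intervals overlapped that of 3R (37.7 to 47.2%), that of 2L only narrowly, and no difference was tested. Being neighbours is mutual, so peaks are not independent in this measure and its intervals may be too narrow. There were 3 groups of 4 or more among the 420 peaks on 3R and 8 among the 380 on 3L. On 2R there were 5 among 378 peaks, on 2L 4 among 294 and on the X 2 among 244. The largest group held 4 peaks on 3R, 2L and the X, 5 on 2R and 6 on 3L. Spearman's rho between score and width was 0.36 on 3R and on 3L, 0.38 on the X, 0.39 on 2L and 0.40 on 2R, again without a test.

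**Figure D5:**
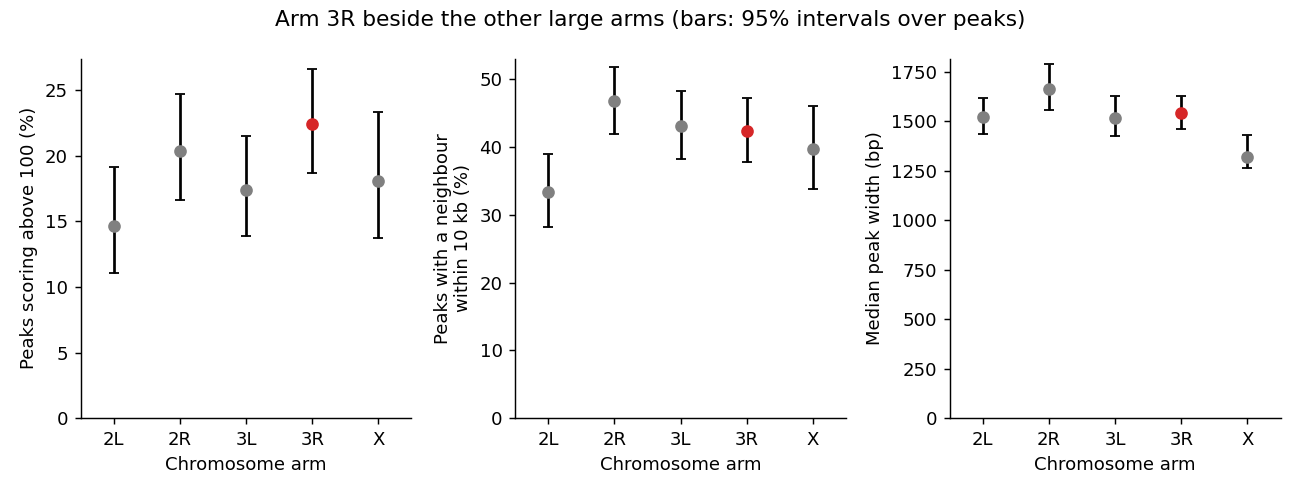
Share of peaks scoring above 100 (left), share of peaks with a neighbour within 10 kb (middle) and median peak width in bp (right) on each large arm, with 3R in red and 95% intervals over peaks as bars. The bars of 3R overlap those of every other arm except the median width on the X. Overlap of bars is not a test.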

How the data were processed

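The data are 1 list of disco ChIP-seq peaks from embryos of 0 to 8 h, deposited for ChIP replicates 1 and 2 together. Reads were aligned with Bowtie to BDGP5, per the submitters' processing notes, and the caller was MACS, per the file headers. The tool versions and the threshold of the calls, like the use of the input and any pooling of replicates before calling, were not given in the sources used here. The score in the list is the authors' own value for each peak, on a scale that is not named. Read depth is unknown.

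Deposited starts count from 0, so each start printed is higher by 1. Widths, stretches between peaks, groups chained by midpoints within 10 kb and counts in 1 Mb windows were computed with Python 3.11.15, numpy 2.4.6, scipy 1.17.1 and pandas 2.3.3, and tested on simulated lists of known layout. No test was run between arms. The available gene table is of Release 6 and gave only names and the chromosome of the genes named; no sequence was used. The regions, the lists and the rule for the positions named (20 highest-scoring, 10 widest, 5 narrowest and end peaks, groups of 4 or more, 5 longest stretches, and 3 densest and 3 sparsest windows) were chosen with earlier results of these data known. Alternatives were the top 50% and top 25% by score, merging across gaps under 1 kb, leaving out the peak with a start below 0, covered bases, neighbour limits of 5 and 50 kb, shifted windows and a score above 150.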

Additional observations from a re-analysis of the deposited data

How the results depend on the processing

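Of 33 values recomputed for 3R under the alternatives, 16 stayed inside the interval of the reported value and 17 moved out of it. For peaks per window the quartiles of the windows, 10 and 19, stood in for an interval of the median. The longest stretch has no interval and counts as moved with any change. Leaving out the peak with a start below 0 moved none of the 7 measures by this rule, nor did shifted windows or covered bases. For covered bases a share of bases was held against an interval for a share of peaks. Merging 44 peaks into 21 regions moved only the share with a neighbour within 10 kb, to 34.8%. That share was 21.7% with a limit of 5 kb and 82.4% with 50 kb. The lists restricted by score hold fewer peaks and only the higher scores. In them the median score and the share above 100 could not fall, and counts per window could not rise. Limits of 5 or 50 kb and a score above 150 measure other quantities. The count of 16 against 17 is therefore no measure of robustness. In the top 50% (211 peaks on 3R) 3R held 24.5% of the peaks on the large arms, inside the interval of its main value. There the median width was 1739 bp, the median score 96.87, the share above 100 44.5%, the share with a neighbour 15.2%, the median per window 7 and the longest stretch 1066 kb. In the top 25% (119 peaks) these were 1995 bp, 111.79, 79.0%, 11.8%, 4 and 1467 kb, and 3R held 27.6% of the peaks on the large arms. A score above 150 was reached by 5.48%. No paired analysis was possible because the ChIP replicates share 1 peak list. Leaving out a replicate was likewise not possible.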

Other observations

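The order of the 94 peaks of 3R that scored above 100 was described along the arm. Their neighbouring midpoints were a median of 235 kb apart. The peak that followed one above 100 was itself above 100 in 17 of 93 cases (18.3%, 95% Wilson interval 11.7 to 27.3%), and in 76 of 326 cases (23.3%, 19.1 to 28.2%) after a peak of up to 100. The intervals overlap, and both include the 22.4% of all 3R peaks that scored above 100. The longest run of consecutive peaks above 100 was 3 and occurred 4 times, first from 1541337 to 1621811 with scores of 105.28, 142.55 and 120.95. The longest stretch without a peak above 100 was 1985 kb, from 2208233 to 4193237, with 24 lower peaks inside it. The next were 1467 kb from 21484075 to 22951192, with 4 peaks that include both sides of the longest stretch without any peak, and 1182 kb from 23742338 to 24924008, with 17 peaks. Each of these last stretches ends at one of the 3 highest-scoring peaks of the arm. This measure was chosen after the peaks had been seen.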
